A study of Mus musculus with 8 samples.

Results

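The 37 genes described here encode the machinery that cuts proteins into peptides and shows them on MHC class I. They were taken by symbol, with earlier results of these data known, and are 37 of the 32285 genes listed in each library. All 37 were found. They comprise 8 class I heavy chains, 10 genes of the light chain, peptide transport, peptide loading, peptide trimming and class I transcription, 5 genes of the immunoproteasome and its PA28 cap, and 14 constitutive subunits of the proteasome core.

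Liver cells of 8 C57BL/6J females, 9 weeks old, were profiled by scRNAseq, 1 library for each mouse and 4 mice in each group. Control mice (replicates 1 to 4) were untreated, and BG mice (replicates 5 to 8) had received 1.2 mg of intravenous β-glucan (Imprime PGG/Odetiglucan), a Dectin-1 agonist, 2 days earlier. CD45+ liver cells were combined with the buffy coat of a density gradient run on the unbound fraction. Kupffer cells (KCs) are the resident macrophages of the liver, and BMDMs are macrophages derived from the bone marrow. The comparison asks how BG changes liver leukocytes, and here which of them raise the genes of class I presentation.

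MHC class I presents peptides of cytosolic proteins to CD8 T cells and is read by NK cells as a sign of self. The proteasome makes the peptides, the transporter of Tap1 and Tap2 moves them into the endoplasmic reticulum, and a loading complex fits them onto a heavy chain paired with β2-microglobulin. Interferons raise most of these genes and exchange the catalytic subunits Psmb5, Psmb6 and Psmb7 for the immunoproteasome subunits Psmb8, Psmb9 and Psmb10, in that order, which favors peptides that class I can hold.

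Barcodes with 200 to 2500 genes and at most 30% mitochondrial UMIs were kept (48465 of 127557). Cells were put in classes by counts of marker genes with a UMI, and 15 classes with 37658 cells were tested. Another 6168 cells that passed the gates of 2 lineages were left out as mixed. Among the markers that set the gates, Clec4f had a UMI in 93.7% of KCs and Cd79a in 97.2% of B cells. Ptprb had one in 98.5% of endothelial cells and Ncr1 in 75.3% of NK and ILC1 cells. The gates select for these markers, so the shares describe the gates and do not test the identity of the classes. Basophils, plasma cells, hepatocytes and stellate cells had too few cells per mouse to be tested. Control libraries held 39612380 to 46211839 UMIs and BG libraries 44184117 to 60654583. Pairs of libraries shared 5 to 26 kept barcodes. BG replicate 5 stood apart, with 66.6% of its UMIs mitochondrial over all barcodes against 30.5% to 41.9% in the other libraries. In the kept cells, which the tests use, BG replicate 5 stood at 18.8%, against 13.6% to 17.6% in the other libraries. Each call and difference of a member was recomputed without it, and the values appear where they changed a call.

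Of the members, 14 lie on chromosome 17 (GRCm38), among them all heavy chains and Tap1, Tap2, Tapbp, Psmb8 and Psmb9. Psmb9 (chr17:34181987-34187764, minus strand) and Tap1 (chr17:34187553-34197225, plus strand) are annotated head to head with overlapping first ends, and Psmb8 (chr17:34197721-34201454) and Tap2 (chr17:34203527-34216321) follow Tap1. B2m lies on chromosome 2 (chr2:122147686-122153083).

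RefSeq promoter windows of 300 bases, from 250 bases before to 50 after the transcript start (GRCm38.p6), were found for 31 of the 37 members. They were searched on both strands for an interferon-stimulated response element core (GAAA, 2 bases of any kind and GAAA again) and for AAGTGAAA, the interferon regulatory factor element of class I heavy chain genes. The motifs can overlap, as they do in H2-T22. At least 1 of them was present in 12 of the 31 members and in 5.49% of all 27025 genes with a window. All 8 heavy chains and B2m held one, as did Erap1, Psme1 and Psmb3. AAGTGAAA was searched for as an element known from heavy chain genes, which are related in sequence. Their matches are thus not independent, and the share among members is no test against that of all genes. Windows are printed for 5 of the members whose values carry the results and for Tap1, which held neither motif, with the motifs in capitals. They are H2-K1 at chr17:34000284-34000583 (minus strand), H2-Q7 at chr17:35438905-35439204 (plus), H2-T22 at chr17:36042693-36042992 (minus), H2-T23 at chr17:36032652-36032951 (minus), B2m at chr2:122147437-122147736 (plus) and Tap1 at chr17:34187306-34187605 (plus). Counted from the start, the first base of the motif lies at -104 in H2-K1, -113 in H2-Q7, -191 in H2-T22, -124 in H2-T23 and -139 in B2m.
H2-K1: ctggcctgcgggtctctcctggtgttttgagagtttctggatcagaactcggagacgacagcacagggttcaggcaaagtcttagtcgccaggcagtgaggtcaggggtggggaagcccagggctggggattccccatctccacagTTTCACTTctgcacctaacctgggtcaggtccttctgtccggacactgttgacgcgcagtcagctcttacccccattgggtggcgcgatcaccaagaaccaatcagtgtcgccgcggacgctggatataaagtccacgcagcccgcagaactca
H2-Q7: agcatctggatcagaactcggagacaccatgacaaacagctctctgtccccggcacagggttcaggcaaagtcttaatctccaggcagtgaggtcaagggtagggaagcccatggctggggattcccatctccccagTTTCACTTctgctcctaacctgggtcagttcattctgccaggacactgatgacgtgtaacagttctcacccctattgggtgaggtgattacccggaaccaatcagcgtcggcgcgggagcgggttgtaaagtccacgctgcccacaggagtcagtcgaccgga
H2-T22: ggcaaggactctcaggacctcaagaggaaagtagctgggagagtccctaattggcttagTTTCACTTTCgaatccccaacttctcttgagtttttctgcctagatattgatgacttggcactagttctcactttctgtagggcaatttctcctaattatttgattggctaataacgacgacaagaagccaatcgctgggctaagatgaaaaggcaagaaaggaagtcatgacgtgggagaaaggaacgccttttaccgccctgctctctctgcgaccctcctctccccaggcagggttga
H2-T23: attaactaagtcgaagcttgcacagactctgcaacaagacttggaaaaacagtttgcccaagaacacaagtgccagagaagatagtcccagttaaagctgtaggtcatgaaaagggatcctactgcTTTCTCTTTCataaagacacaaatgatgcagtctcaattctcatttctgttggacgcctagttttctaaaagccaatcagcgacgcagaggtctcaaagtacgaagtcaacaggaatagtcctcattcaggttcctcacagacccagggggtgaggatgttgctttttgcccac
B2m: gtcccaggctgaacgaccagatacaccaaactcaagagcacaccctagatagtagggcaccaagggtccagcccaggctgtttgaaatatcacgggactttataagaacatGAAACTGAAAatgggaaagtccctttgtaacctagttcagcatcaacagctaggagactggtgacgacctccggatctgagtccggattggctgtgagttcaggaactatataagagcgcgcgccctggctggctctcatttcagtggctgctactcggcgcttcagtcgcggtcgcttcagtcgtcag
Tap1: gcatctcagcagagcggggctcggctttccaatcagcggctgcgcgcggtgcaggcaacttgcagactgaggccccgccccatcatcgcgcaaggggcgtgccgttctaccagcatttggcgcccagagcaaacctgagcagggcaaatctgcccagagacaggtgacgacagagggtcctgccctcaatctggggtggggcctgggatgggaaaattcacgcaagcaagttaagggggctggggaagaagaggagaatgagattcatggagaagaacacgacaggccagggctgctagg
A match is a description of letters, and binding was not measured. Tap2, Tapbpl, Nlrc5, Psmb1, Psmb2 and Psmb7 were not matched.

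Levels are given as CPM, the UMIs of a gene scaled to the TMM-adjusted total of a class in a mouse, and groups are given as mean ± SD of 4 mice, or of 3 for bile duct cells of control mice. The assay tags transcript ends, so a CPM carries no length term, and levels are compared within a gene across classes rather than between genes. Heavy chain genes are near-identical in sequence and the authors' counting drops reads that fit several genes, so the split among H2-K1, H2-D1, H2-Q4, H2-Q6 and H2-Q7 is uncertain.

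The order of the classes in control livers differed among the heavy chains. H2-K1 was 3392 CPM in gamma delta T cells, 2993 in NK and ILC1 cells and 2607 in NKT-like cells, against 1130 in B cells and 1090 in cDC1. H2-Q7, a Qa-2 heavy chain, ranged more widely, from 105 ± 42.4 CPM in monocytes and BMDMs to 1346 ± 329 CPM in gamma delta T cells, with 949 CPM in NKT-like and 1064 CPM in NK and ILC1 cells. H2-T23 and H2-M3 were highest in pDCs (499 and 76.6 CPM), and H2-D1 in neutrophils (2713 CPM). B2m, the light chain that every class I molecule needs, was highest in KCs (3190 ± 375 CPM) and lowest in bile duct cells (907 ± 206 CPM) and B cells (1072 ± 135 CPM). Gamma delta T cells and KCs did not differ beyond their spread in B2m (3028 ± 600 CPM in the former).

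The immunoproteasome had another order. Psmb8 was highest in cDC1 (1034 CPM), whose function is to present antigen to CD8 T cells, and lowest in endothelial cells (153 ± 12.5 CPM) and bile duct cells (164 CPM). Psme1, a subunit of the PA28 cap, was likewise highest in cDC1 (1161 CPM). Psmb5, a constitutive catalytic subunit, was highest in bile duct cells (275 CPM) and lowest in B cells (76.3 CPM). 

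Members called higher in BG lay mainly in monocytes and BMDMs, in B cells and in endothelial cells. Counts of calls do not rank the size of the change. The median log2 fold change over tested members was 0.40 in KCs, 0.24 in monocytes and BMDMs, 0.14 in B cells and 0.24 in endothelial cells. Calls required a log2 fold change past 0.5 together with an adjusted p under 0.05 (edgeR quasi-likelihood test, Benjamini-Hochberg over all genes of the class). Of 484 member and class pairs tested, 19 were called higher and 0 lower, with 12 members called in 6 classes. At an unadjusted p under 0.05, 146 pairs were higher and 4 lower, and DESeq2 also called 0 lower. Counts at an unadjusted p, here and below, come without the share of all genes at that p. They are not read against a background. Monocytes and BMDMs had 6 called members of 36 tested, against 1.44% of all genes called higher there. B cells had 6 of 37, against 1.25%, endothelial cells 3 of 37, against 1.29%, and NK and ILC1 cells 2 of 37, against 1.57%. KCs had 1 of 32, against 0.816%, and plasmacytoid dendritic cells (pDCs) 1 of 37, against 0.601%.

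No member was called in the other 9 classes. The share of all genes called higher was 0.165% in cDC1, 0.519% in cDC2, 2.61% in neutrophils, 0.371% in bile duct cells, 0.688% in CD4 T cells, 0.702% in CD8 T cells, 2.22% in NKT-like cells, 0.095% in gamma delta T cells and 2.57% in other T cells. Members at an unadjusted p under 0.05 and a higher level numbered 1, 2, 1, 10, 10, 6, 14, 1 and 22 in these classes. The percentages are for called genes and are no background for these numbers. Neutrophils tested only 3 members. The 5 members that did not pass the low-count filter in KCs were H2-Q4, H2-M3, Tapbpl, Erap1 and Nlrc5, and in monocytes and BMDMs Nlrc5 alone did not.

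**Figure D1:**
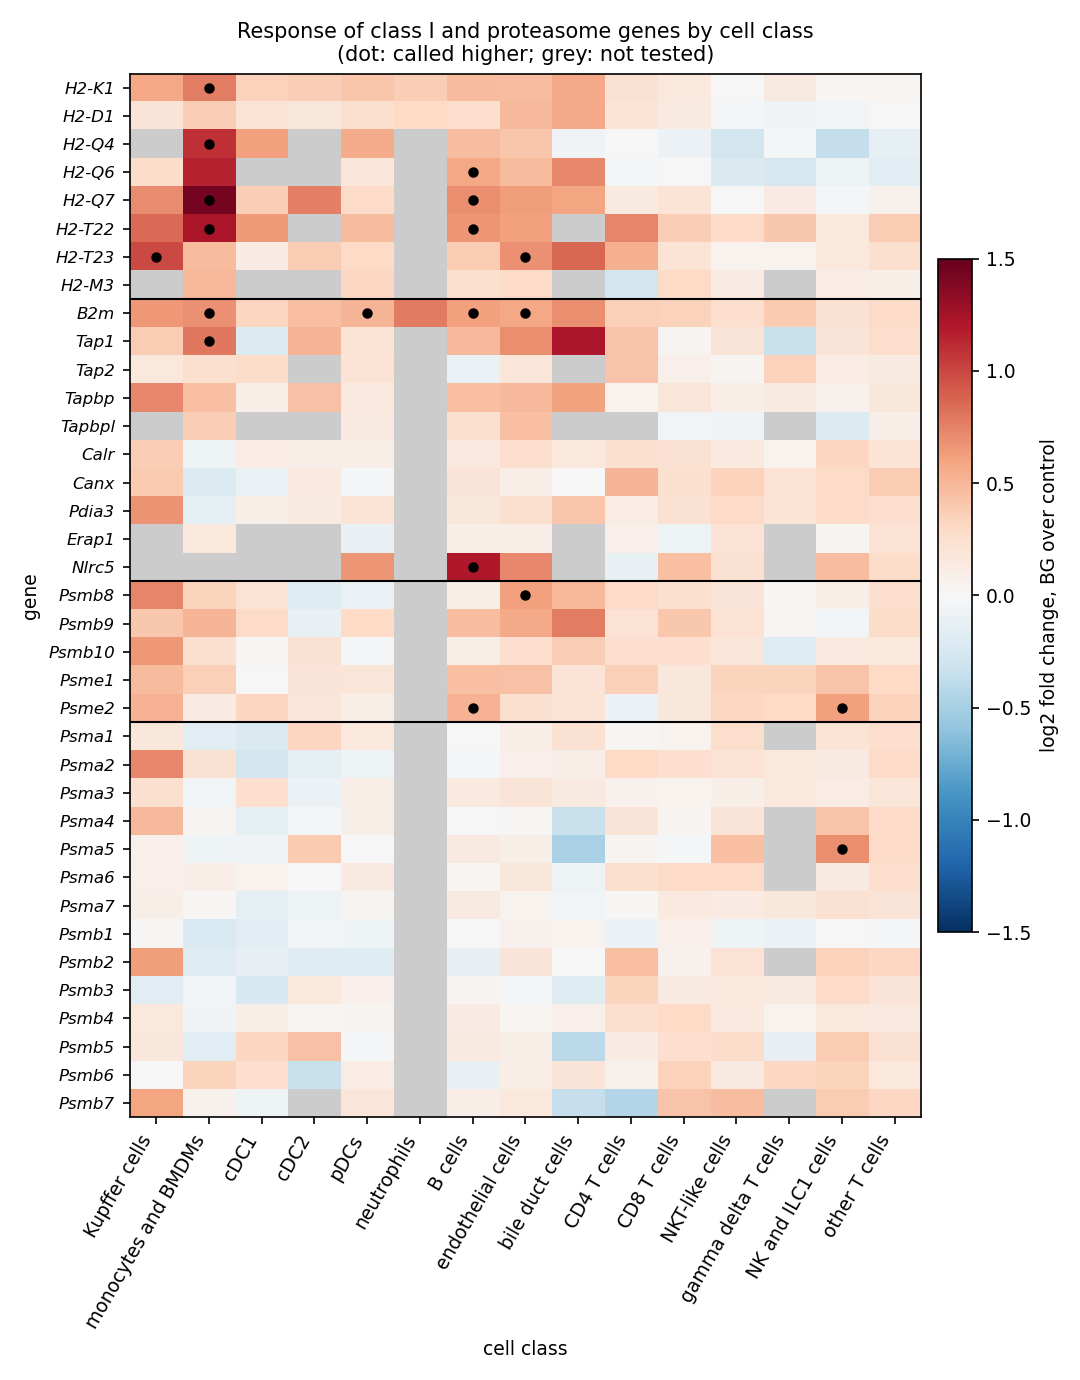
Log2 fold change (color, BG over control) of each member (rows, in the 4 groups of roles separated by lines) in each class (columns), with a dot where a member was called higher and grey where it was not tested. The 19 dots lie mostly in the class I rows of monocytes and BMDMs, B cells and endothelial cells, and the 14 constitutive subunits in the lowest block hold 1 dot, Psma5 in NK and ILC1 cells.

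In monocytes and BMDMs, the heavy chains had a median log2 fold change of 0.93 with all 8 higher in BG, whereas the 14 constitutive subunits had a median of -0.04 with 6 higher. The median over all genes was -0.01. Every BG mouse was above every control mouse for 10 of 36 members, against 4.06% of all genes.

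H2-K1, a classical heavy chain, was at 1454, 1408, 1245 and 1075 CPM in control mice and 2531, 1779, 2172 and 2352 CPM in BG mice. The groups did not overlap, and the log2 fold change was 0.76 ± 0.12 (SE, adjusted p = 0.00069). H2-D1, the other classical heavy chain of this strain, was at 2137, 2104, 1936 and 1509 CPM against 2744, 2350, 2656 and 2173 CPM. It was likewise apart, but the difference of 0.37 ± 0.12 missed the adjusted threshold (adjusted p = 0.138).

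H2-T22, a non-classical heavy chain known as a ligand of gamma delta T cells, was at 63.7, 44.8, 62.0 and 53.9 CPM in control mice and 146, 99.6, 153 and 126 CPM in BG mice. All BG values were higher, by 1.23 ± 0.21 on the log2 scale (adjusted p = 0.00116). H2-Q7 was at 116, 102, 153 and 50.3 CPM against 326, 167, 284 and 356 CPM, a log2 fold change of 1.44 ± 0.24 (adjusted p = 0.000897). H2-Q4 rose by 1.10 ± 0.28 (adjusted p = 0.0329), a call that was lost without any 1 of Control replicates 1 and 2 and BG replicates 5, 6 and 8 (adjusted p from 0.0814 to 0.118). H2-Q6 had a similar estimate, 1.16 ± 0.35, and was not called (adjusted p = 0.0896).

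B2m was at 3059, 2373, 1869 and 1743 CPM in control mice and 3957, 3044, 3836 and 3750 CPM in BG mice. Only BG replicate 6 fell inside the control range, and B2m rose by 0.68 ± 0.14 (adjusted p = 0.00656). Tap1, a subunit of the peptide transporter, was at 169, 105, 124 and 89.8 CPM against 212, 193, 181 and 275 CPM. The groups were apart and the log2 fold change was 0.80 ± 0.19 (adjusted p = 0.0248), which passed 0.05 without Control replicate 2 (0.115), Control replicate 4 (0.122) or BG replicate 8 (0.126).

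The immunoproteasome subunits were not called in monocytes and BMDMs. Psmb8 was at 501, 478, 463 and 528 CPM in control mice and 751, 536, 662 and 542 CPM in BG mice, apart by 0.33 ± 0.13 (adjusted p = 0.273). Psmb9 was at 188, 173, 162 and 165 CPM against 274, 170, 299 and 245 CPM, where BG replicate 6 alone fell among the controls, and was called without that mouse (0.66, adjusted p = 0.033). Psmb10 was at 222, 194, 196 and 172 CPM against 194, 202, 243 and 284 CPM, and the groups overlapped.

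RNA of T cells moved with these results. The summed level of 8 T cell genes in monocytes and BMDMs was 70.8 to 155 CPM in control and 124 to 417 in BG mice, with 0 of the 8 absent. The same list summed to 3804 to 4703 CPM in control NKT-like cells, where H2-Q7 was 949 CPM. With cells holding a UMI of a T cell receptor gene left out, the same number of members was called (6) and H2-Q7 differed by 1.56. When cells with T cell markers were let into the class (an alternative chosen after seeing the data), 3 members were called, and H2-Q7 and H2-Q4 both stood at 0.52 (adjusted p = 0.133 and 0.274). A limit of 10% mitochondrial UMIs kept 231 of the 675 cells and 1 called member, and H2-Q7 was then at 0.67 (adjusted p = 0.624).

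In KCs, 30 of 32 tested members were higher in BG and the median log2 fold change was 0.40, against -0.01 over all genes, but 1 member passed. KCs numbered 395, with 11 to 86 per mouse. H2-T23, which encodes Qa-1, a ligand of the inhibitory receptor NKG2A, was at 343, 302, 265 and 296 CPM in control mice and 642, 454, 585 and 582 CPM in BG mice. The groups did not overlap, and H2-T23 rose by 0.99 ± 0.21 (adjusted p = 0.0139). Leaving out Control replicate 3 (adjusted p = 0.14), Control replicate 4 (0.0679) or BG replicate 5 (0.0537) ended the call. So did leaving out cells with a UMI of a T cell receptor gene, which kept 292 KCs and 7 mice with at least 10. The 8 T cell genes summed to 249 to 668 CPM in control and 327 to 842 CPM in BG KCs.

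B2m was at 3473, 3520, 3029 and 2736 CPM in control KCs and 5403, 3829, 4883 and 5678 CPM in BG KCs, and every BG mouse was higher. The difference of 0.65 ± 0.18 did not pass (adjusted p = 0.0682), and it did with DESeq2 (adjusted p = 0.0199), a stricter gate (0.00738), or without Control replicate 1 (0.0445), Control replicate 2 (0.0499) or BG replicate 6 (0.0438). The stricter gate left 295 KCs, with 7 mice holding at least 10. H2-K1 was at 2787, 1408, 2193 and 2071 CPM against 3513, 2329, 2880 and 3646 CPM, overlapping at 1 BG mouse (0.58 ± 0.20, adjusted p = 0.166). H2-D1 was at 2358, 2092, 2049 and 2092 CPM against 2532, 1974, 2471 and 2700 CPM, and BG replicate 6 was below all controls.

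Psmb8 was at 214, 282, 352 and 306 CPM in control KCs and 544, 395, 547 and 530 CPM in BG KCs. All BG values were higher, with a log2 fold change of 0.73 ± 0.21 (adjusted p = 0.0898). Psmb9 (300, 181, 208 and 190 CPM against 232, 237, 271 and 339 CPM), Psmb10 (257, 80.5, 167 and 158 CPM against 312, 98.7, 218 and 313 CPM) and Tap1 (214, 141, 110 and 158 CPM against 232, 178, 117 and 217 CPM) overlapped between the groups. In all, 5 of 32 members were apart and higher, against 4.44% of all genes.

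The response of KCs was not shown to differ from that of monocytes and BMDMs for any of 32 members (class by treatment term with mouse as block), where 0.0538% of all genes had a lower response in KCs. The widest gaps were those of Pdia3 (0.87 ± 0.24, adjusted p = 0.193) and Psmb2 (0.86 ± 0.38, adjusted p = 0.438), toward a larger response in KCs, and H2-Q7 (-0.80 ± 0.31, adjusted p = 0.334), toward a smaller one. At an unadjusted p under 0.05, 3 members were larger and 1 smaller. Against endothelial cells 0 of 32 differed by edgeR, with 0.436% of all genes lower, and 1 member was smaller at an unadjusted p under 0.05. The cell cycle list, at 345 to 720 CPM in control and 774 to 1995 in BG KCs, moved with treatment. Cycling cells were those with a UMI of at least 2 of the 12 listed cell cycle genes. Without them, 243 of the 395 KCs and 7 mice with at least 10 KCs were left. No member was then called in KCs (H2-T23 0.94, adjusted p = 0.154). The part of the cell cycle in the result was not otherwise tested.

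In B cells, BG raised the light chain, Qa-2 and T-region heavy chains and the transactivator. Nlrc5, which drives transcription of class I genes, was at 14.7, 12.6, 11.9 and 13.9 CPM in control mice and 37.1, 24.7, 32.8 and 30.6 CPM in BG mice. The groups were far apart, by 1.20 ± 0.17 on the log2 scale (adjusted p = 0.000139). B2m was at 1157, 1216, 949 and 964 CPM against 1829, 1368, 1682 and 1685 CPM, a rise of 0.61 ± 0.10 (adjusted p = 0.000927). Every BG mouse was above the control mice for both.

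H2-Q6 was at 128, 136, 129 and 139 CPM in control B cells and 198, 186, 180 and 226 CPM in BG B cells (0.58 ± 0.09, adjusted p = 0.000545). H2-Q7 was at 241, 245, 218 and 213 CPM against 407, 290, 387 and 405 CPM (0.70 ± 0.10, adjusted p = 0.000253). BG replicate 6 was the lowest treated mouse for H2-Q7, and still above all controls. H2-T22 was at 61.6, 60.4, 52.7 and 48.9 CPM against 108, 69.9, 90.8 and 91.9 CPM (0.67 ± 0.13, adjusted p = 0.00315). Psme2, a PA28 subunit, was at 100.99, 108, 103 and 96.7 CPM against 139, 126, 204 and 128 CPM (0.52 ± 0.12, adjusted p = 0.0283). Neither overlapped between the groups.

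A further 5 members passed the adjusted p with smaller changes, namely H2-K1 (0.48), H2-Q4 (0.46), Tap1 (0.49), Tapbp, the tapasin that edits peptides on class I (0.45), and Psme1 (0.45). The 14 constitutive subunits had a median of 0.04 and none passed. In all, 12 of 37 members were apart and higher, against 3.63% of all genes. The Psme2 call was lost without Control replicate 1, 3 or 4 or BG replicate 5 or 7 (adjusted p from 0.0651 to 0.102), and without BG replicate 7, its highest mouse, the difference was 0.35. A limit of 10% mitochondrial UMIs kept 1150 of the 8471 B cells, and 0 of the 6 calls remained (H2-Q6 0.57, adjusted p = 0.553, and H2-Q7 0.27, adjusted p = 0.9). T cell genes in B cells summed to 289 to 349 CPM in control and 227 to 387 CPM in BG mice.

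In endothelial cells, H2-T23 was at 505, 431, 410 and 344 CPM in control mice and 827, 564, 754 and 582 CPM in BG mice, apart and higher by 0.69 ± 0.13 (adjusted p = 0.00336). Psmb8 was at 168, 143, 159 and 144 CPM against 301, 197, 263 and 193 CPM. It rose by 0.61 ± 0.13 (adjusted p = 0.00791), the only immunoproteasome subunit called in any class, and missed the threshold without BG replicate 7 (adjusted p = 0.0555). B2m, at 3674, 2794, 2197 and 2245 CPM against 4424, 3086, 4232 and 4601 CPM, overlapped between the groups. Its call (0.58 ± 0.14, adjusted p = 0.0326) was lost with DESeq2 (0.366) and without any 1 of Control replicates 2, 3 and 4 and BG replicates 5, 7 and 8 (0.1 to 0.203).

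Endothelial members were higher in BG for 36 of 37, with 6 apart against 3.2% of all genes. The count of called members was 3 with all mice. It was 12 when Control replicate 1 was left out, 13 when BG replicate 6 was, and 1 when BG replicate 7 was. The share of all genes called in these fits is not given, so the shifts are not shown to be particular to the members. Control replicate 1 and BG replicate 6 had the lowest mitochondrial shares of their groups, 31.1% and 30.5% over all barcodes and 13.7% and 13.6% in kept cells. With at most 10% mitochondrial UMIs, 682 endothelial cells were kept and 0 members were called (H2-T23 0.67, adjusted p = 0.129). Over the 19 called pairs, BG replicate 6 was the lowest BG mouse in 13 and Control replicate 1 the highest control mouse in 12.

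In pDCs, B2m was at 2335, 2035, 1735 and 1827 CPM against 2819, 2313, 3158 and 2999 CPM. BG replicate 6 alone fell among the controls, and B2m rose by 0.51 ± 0.10 (adjusted p = 0.00361), just past the fold threshold. It was under that threshold without Control replicate 3 or 4 or BG replicate 7 or 8 (0.45 to 0.48). H2-K1 passed the adjusted p with 0.42 ± 0.09.

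**Figure D2:**
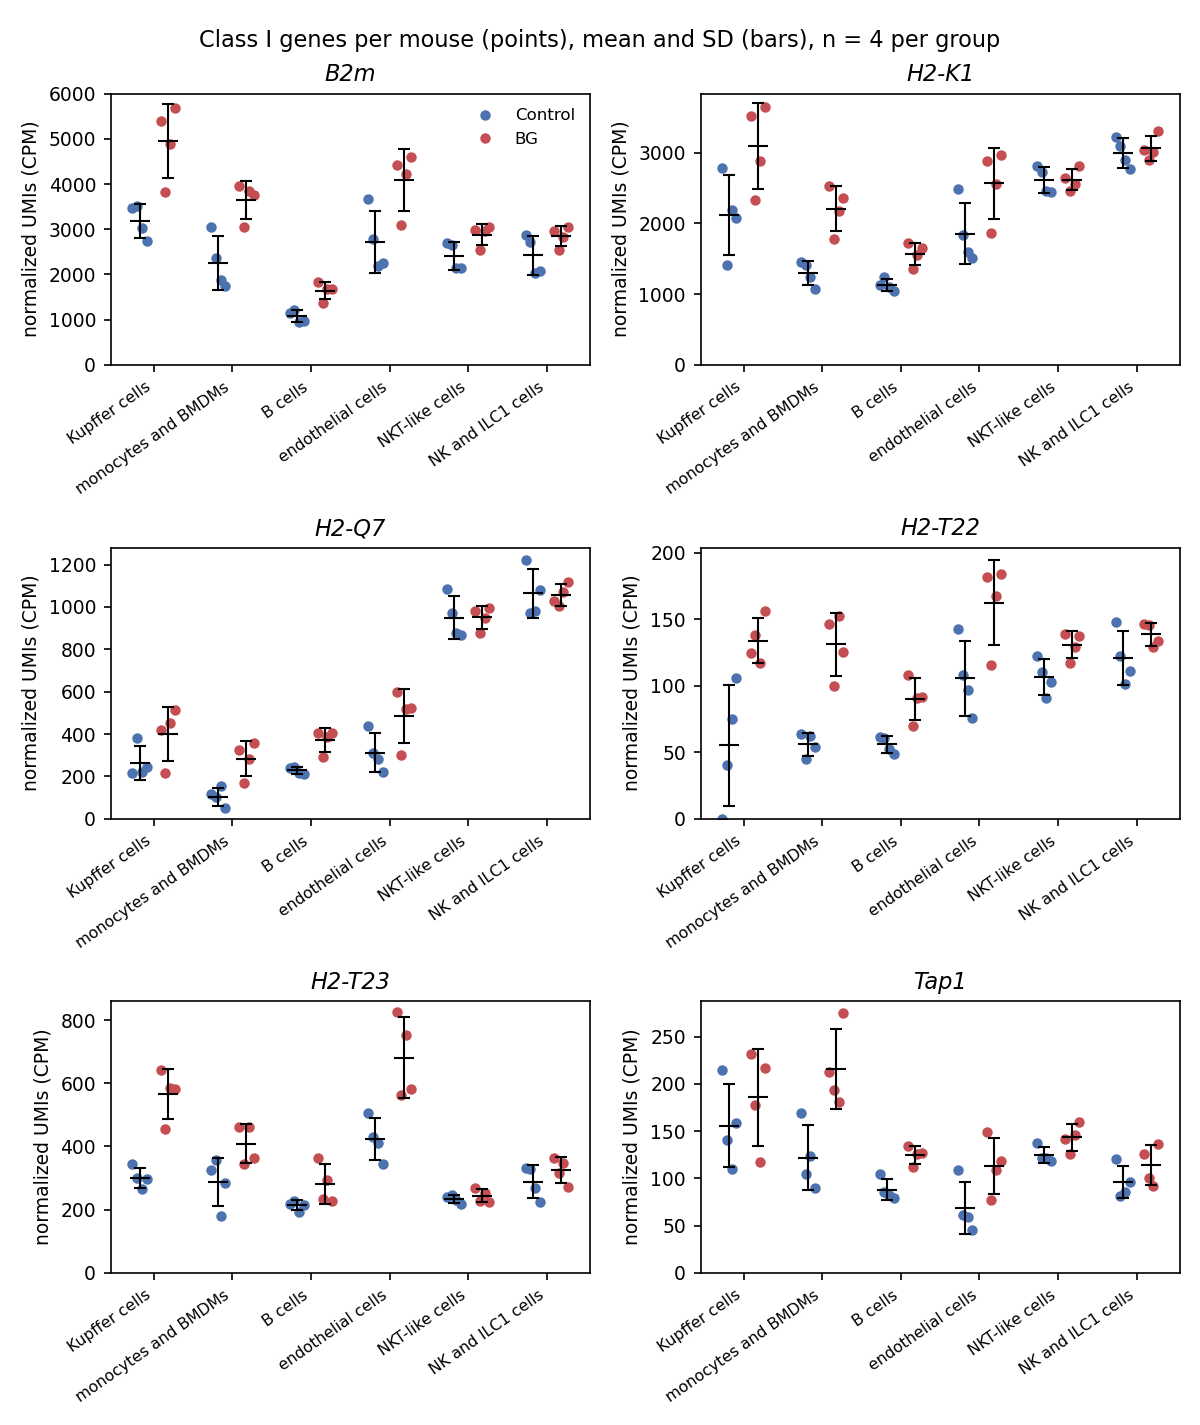
Normalized UMIs (CPM, vertical axis, from 0, a separate scale in each panel) of 6 class I genes in 6 cell classes (horizontal axis), with 1 point per mouse (blue control, red BG) and bars for the mean and SD of 4 mice. For H2-K1 and H2-Q7 the red points lie above the blue in monocytes and BMDMs and in B cells, whereas the colors mix in NKT-like and in NK and ILC1 cells, the plotted classes with the highest control levels of both genes.

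None of the 8 listed heavy chains was called in T or NK cells by edgeR, among them the classes with the highest control levels of H2-K1 and H2-Q7. In NKT-like cells, H2-K1 was at 2810, 2720, 2455 and 2444 CPM in control mice and 2639, 2461, 2562 and 2806 CPM in BG mice. The groups lay on top of each other, with a log2 fold change of 0.01 ± 0.09. H2-Q7 was at 1084, 972, 876 and 866 CPM against 982, 877, 947 and 996 CPM, again with no separation (0.00 ± 0.09). H2-Q4 was at 168, 153, 161 and 158 CPM against 129, 137, 121 and 142 CPM, lower in every BG mouse, by -0.28 ± 0.09 (adjusted p = 0.0965). The median over the heavy chains was 0.00 in NKT-like cells, 0.01 in NK and ILC1 cells and 0.04 in other T cells. It was 0.05 in gamma delta T cells, 0.17 in CD4 T cells and 0.18 in CD8 T cells. In CD4 T cells 5 of 8 heavy chains were higher in BG. Among them H2-T22 went from 85.4 ± 19.1 to 149 ± 17.9 CPM without being called.

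The difference from B cells was tested directly. For 8 of 37 members the response in NKT-like cells was smaller than in B cells, against 1.17% of all genes, and for 0 it was larger. H2-Q6 differed by -0.79 ± 0.09 (adjusted p = 5.65e-06), H2-Q7 by -0.69 ± 0.08 (5.65e-06), H2-K1 by -0.48 ± 0.06 (2.19e-05) and Nlrc5 by -0.96 ± 0.17 (0.0012). B2m differed less, by -0.36 ± 0.06 (0.00027), as it was 0.26 ± 0.10 higher in BG NKT-like cells without passing the test. Without any 1 mouse, 7 or 8 members differed.

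NK and ILC1 cells, compared with the same B cells, had 5 members with a smaller response, against 0.737% of all genes, namely H2-K1, H2-Q4, H2-Q6, H2-Q7 and B2m. This count was 3 without BG replicate 5. After seeing the calls, NKT-like cells were also compared with monocytes and BMDMs and with endothelial cells. Against monocytes and BMDMs 7 of 36 members differed, against 0.738% of all genes, and H2-Q7 by -1.45 ± 0.21 (adjusted p = 9.53e-05). Against endothelial cells 6 of 37 differed, against 0.741%, and 3 without any 1 of Control replicates 2, 3 and 4 and BG replicates 5 and 7. These comparisons share the NKT-like or the B cells, so they are not independent.

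**Figure D3:**
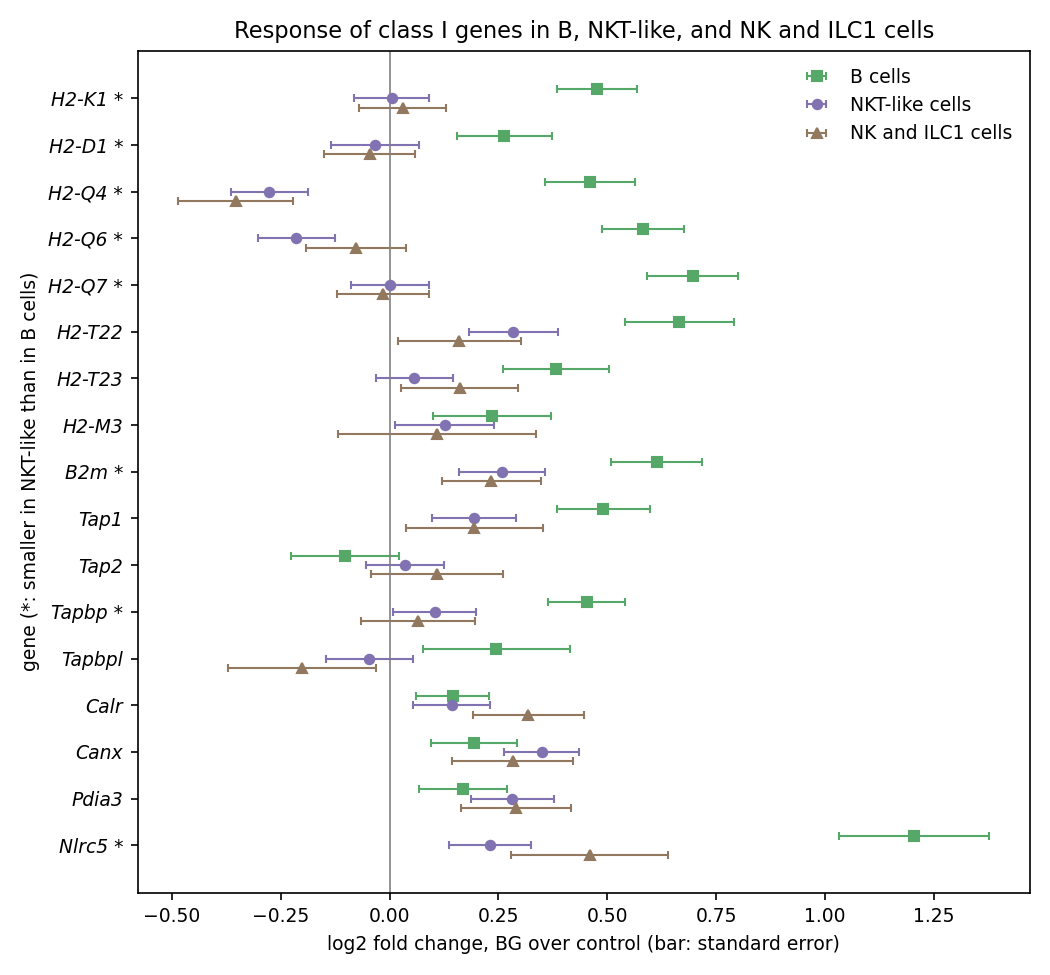
Log2 fold change (horizontal axis, BG over control, bars are standard errors) of class I genes (vertical axis) in B cells (green squares), NKT-like cells (purple circles) and NK and ILC1 cells (brown triangles), with an asterisk at members whose response was smaller in NKT-like than in B cells. H2-K1 and H2-Q7 lie near 0.48 and 0.70 in B cells and near 0 in NKT-like cells.

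The members that passed the adjusted p in T and NK cells were mostly not heavy chains. In NK and ILC1 cells, Psme2 was at 238, 201, 189 and 217 CPM in control mice and 336, 318, 382 and 277 CPM in BG mice (0.61 ± 0.13, adjusted p = 0.00511). Psma5, an alpha ring subunit of the core, was at 81.2, 84.5, 64.9 and 83.6 CPM against 128, 140, 119 and 122 CPM (0.69 ± 0.14, adjusted p = 0.00504). Both were higher in every BG mouse. In NKT-like cells Canx, the lectin chaperone calnexin (0.35), Psma5 (0.45) and the catalytic subunit Psmb7 (0.46) passed the adjusted p below the fold threshold, and 10 of 37 members were apart and higher, against 5.45% of all genes. In other T cells H2-T22 (0.38), Canx (0.38), Psme1 (0.30) and Psme2 (0.35) did.

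Cell cycle genes moved with these proteasome results. Their summed level was 449.5 to 809 CPM in control and 864 to 1519 CPM in BG NK and ILC1 cells, and 485 to 643 against 772 to 1397 in NKT-like cells. With cycling cells left out, Psma5 (0.60, adjusted p = 0.187) and Psme2 (0.49, adjusted p = 0.143) were no longer called in NK and ILC1 cells. Nor were they with at most 10% mitochondrial UMIs (0.80, adjusted p = 0.137, and 0.51, adjusted p = 0.192).

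The balance of immunoproteasome and constitutive subunits overlapped between the groups in all but 1 of the 15 classes measured. It was taken as the UMIs of Psmb8, Psmb9 and Psmb10 over those of Psmb5, Psmb6 and Psmb7 in each mouse, as a description with no test. In endothelial cells the ratio was 1.60, 1.42, 1.45 and 1.19 in control mice and 2.01, 1.54, 1.96 and 1.87 in BG mice, a log2 difference of 0.38, and BG replicate 6 alone fell within the control range. In monocytes and BMDMs it was 2.65, 2.32, 2.92 and 2.46 against 3.15, 2.84, 3.09 and 3.31 (0.26), and again BG replicate 6 alone fell within the control range. KCs gave 2.00, 1.59, 2.17 and 1.72 against 2.84, 1.61, 2.27 and 3.32 (0.42, or 0.26 to 0.59 with 1 mouse left out), overlapping, from only 9 to 86 constitutive UMIs per mouse.

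In NKT-like cells the ratio was 3.69, 3.89, 3.73 and 3.93 against 4.09, 3.43, 3.56 and 3.56, with overlap and no rise (-0.06). NK and ILC1 cells had 3.06 ± 0.58 against 2.51 ± 0.26. CD4 T cells were the only class in which all BG mice (3.45 to 4.07) were above all control mice (2.64 to 3.33). Their ratio rested on 45 to 105 constitutive UMIs per mouse. Of the 14 constitutive subunits 12 were higher in BG there, but Psmb7, part of the ratio, was lower (-0.44) without being called. Bile duct cells, with 3 control mice, had the lowest ratios, 0.45 ± 0.07 in control and 0.86 ± 0.40 in BG mice.

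By role, the 5 genes of the immunoproteasome and PA28 had medians of 0.52 in KCs, 0.33 in monocytes and BMDMs, 0.45 in B cells and 0.44 in endothelial cells, where the 14 constitutive subunits had 0.16, -0.04, 0.04 and 0.09. In NKT-like cells the medians were 0.22 and 0.20, and in NK and ILC1 cells 0.15 and 0.26.

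**Figure D4:**
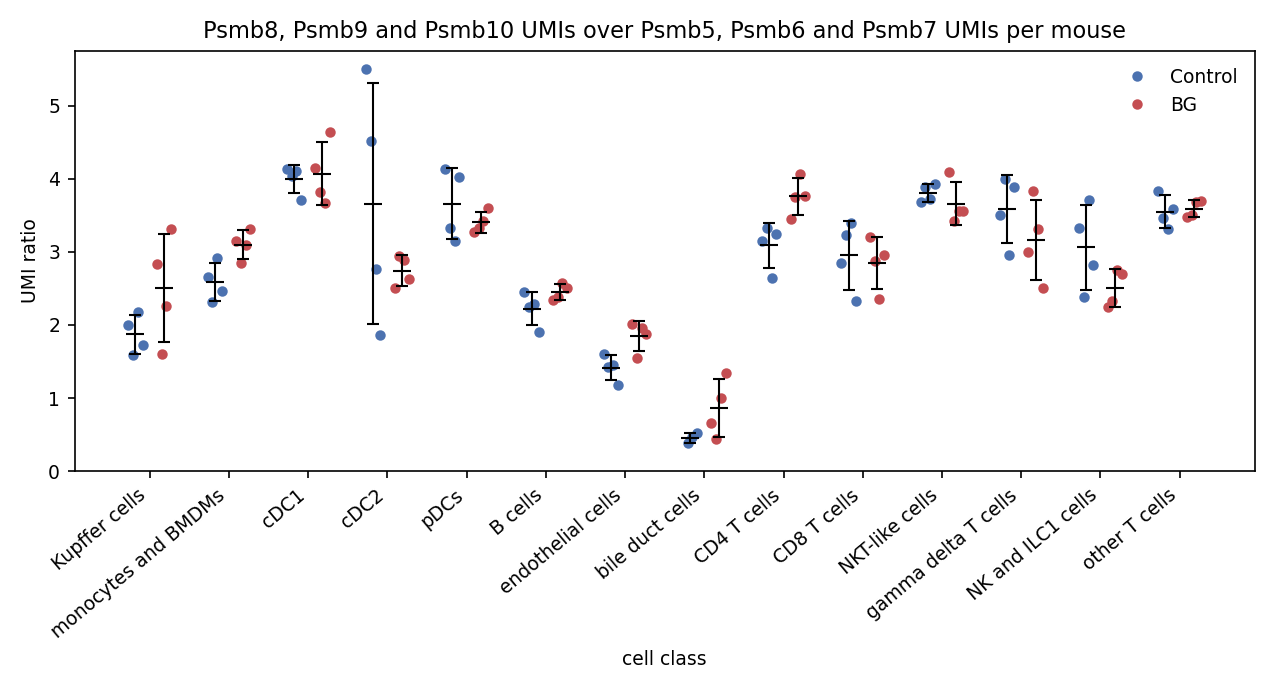
Ratio of Psmb8, Psmb9 and Psmb10 UMIs to Psmb5, Psmb6 and Psmb7 UMIs (vertical axis, from 0) in each mouse (points, blue control and red BG) of 14 classes (horizontal axis, neutrophils not drawn), with the mean and SD. Endothelial cells went from 1.42 ± 0.17 to 1.85 ± 0.21, and NKT-like cells stood at 3.81 ± 0.12 and 3.66 ± 0.29.

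Other genes of the pathway were taken from lists chosen with earlier results known. The regulatory particle of the proteasome, with 10 base and 9 lid genes, had 0 called in any class by edgeR, and 9 and 8 gene and class pairs were higher at an unadjusted p under 0.05, of 110 and 102. The lists of assembly factors (11 genes), cytosolic peptidases and endoplasmic reticulum chaperones also had 0 called, with 6, 5 and 20 pairs higher and 0, 1 and 1 lower at that p. These other lists were not run with DESeq2. Of 12 factors that act on class I promoters, Irf9 was called higher in 5 classes and Stat2 in 3. Irf9, which carries the DNA-binding part of an interferon-activated complex, rose in B cells (0.90), endothelial cells (0.69), NKT-like cells (0.84), NK and ILC1 cells (0.85) and other T cells (0.70). By the class by treatment term, the Irf9 response of NKT-like cells was not shown to differ from that of B cells (-0.05 ± 0.13, adjusted p = 0.934). Nor did it differ from that of endothelial cells (0.14 ± 0.15, adjusted p = 0.805). It was larger than that of monocytes and BMDMs (0.86 ± 0.22, adjusted p = 0.0274). Stat2 leaned the other way in NKT-like cells, without passing the same test. Its differences were -0.21 ± 0.21 from B cells (adjusted p = 0.779), -0.31 ± 0.26 from monocytes and BMDMs (0.682) and -0.65 ± 0.19 from endothelial cells (0.0998). Of the 12 factors, 3 were higher in BG in NKT-like cells (median -0.08) and 10 in B cells (median 0.13).

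Of 11 other class I genes, 6 were tested in any class and H2-T24 was called in B cells (1.13), endothelial cells (0.87), NKT-like cells (1.02) and other T cells (1.12). Cell cycle genes named by the same rule were Stmn1, higher in 6 classes, Pcna in 5, and Mcm3 and Mcm5 in 4 each.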

How the data were processed

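Each library is 1 mouse. The authors sequenced 10x Genomics 3' libraries, aligned reads to mm10 with introns by Cell Ranger 6.1.2 (from the file headers), and deposited UMI counts per gene and barcode without normalization. The annotation release is not given in the sources used here. Labels give the injected volume as 100 mL and the methods as 100 μL.

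Members, lists and comparisons were chosen with earlier results of these data known. Cells were gated by marker genes without clustering. Thresholds of the gates were set after the marker counts were seen and before any test between groups. No doublet caller was run, and cells passing gates of 2 lineages were left out. Counts were summed per mouse and class, with at least 10 cells per mouse and 3 mice per group, filtered by filterByExpr, normalized by TMM and tested with edgeR 4.0.16 (R 4.3.3). Standard errors come from the F statistic. Scripts were tested on simulated data. Values per mouse are given for B2m, H2-K1, H2-D1, Tap1, Psmb8, Psmb9 and Psmb10 in KCs and in monocytes and BMDMs, for the 8 members called in most classes, and for other members where a comparison rests on them, which were added after their values were seen. Of the other lists, the rule names the 6 genes called in most classes, of which 1 is not reported here, and Stat2 and H2-T24 were added after their values were seen. Replicates are separate mice. Alternatives were other size factors, DESeq2 1.42.0, no filter, other cell limits, other gates and leaving out each mouse.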

Additional observations from a re-analysis of the deposited data

Results flagged for a closer look

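Responses that differed between cell classes by a test of the difference (edgeR, class by treatment term, adjusted p under 0.05) are given as log2 differences. In NKT-like cells minus B cells they were -0.48 for H2-K1, -0.30 for H2-D1, -0.74 for H2-Q4, -0.79 for H2-Q6, -0.69 for H2-Q7, -0.36 for B2m, -0.36 for Tapbp and -0.96 for Nlrc5. In NK and ILC1 cells minus B cells they were -0.43 for H2-K1, -0.78 for H2-Q4, -0.65 for H2-Q6, -0.69 for H2-Q7 and -0.35 for B2m. In NKT-like cells minus monocytes and BMDMs they were -0.77 for H2-K1, -0.41 for H2-D1, -1.39 for H2-Q4, -1.39 for H2-Q6, -1.45 for H2-Q7, -0.97 for H2-T22 and -0.46 for B2m. In NKT-like cells minus endothelial cells they were -0.47 for H2-K1, -0.53 for H2-D1, -0.69 for H2-Q4, -0.67 for H2-Q6, -0.62 for H2-Q7 and -0.63 for H2-T23. All 26 of these differences, which are those of members, were negative.

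A single mouse stood apart from the other 3 of its group in 5 of 60 groups of 4 values looked at, where chance gives about 1 in 20. H2-D1 in control KCs had a highest mouse at 2358 CPM (next 2092). Psmb8 in BG KCs had a lowest mouse at 395 CPM (next 530), and H2-Q7 in BG B cells one at 290.1 CPM (next 387). Psme2 in BG B cells had a highest mouse at 204 CPM (next 139). Psma5 in control NK and ILC1 cells had a lowest mouse at 64.9 CPM (next 81.2).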

How the results depend on the processing

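No paired analysis was possible because the replicate numbers of the groups do not overlap. No result changed direction. With 1 mouse left out in turn, called members ranged from 0 to 2 in KCs, 4 to 8 in monocytes and BMDMs, 0 to 2 in pDCs, 5 to 9 in B cells, 1 to 13 in endothelial cells, 0 to 3 in bile duct cells, 0 to 1 in CD8 T cells, 0 to 1 in NKT-like cells and 2 to 3 in NK and ILC1 cells, and differing members from 3 to 6 for NK and ILC1 cells minus B cells and from 3 to 8 for NKT-like cells minus endothelial cells. DESeq2 called 2 in KCs. Without a filter, 0 were called in pDCs and 8 in endothelial cells. A stricter gate gave 2 in KCs, 5 in endothelial cells and 1 in NK and ILC1 cells, and 8 and 2 differing members for NK and ILC1 cells minus B cells and NKT-like cells minus endothelial cells. Without cycling cells, 0 were called in KCs, 5 in endothelial cells and 0 in NK and ILC1 cells. Without cells holding T cell receptor UMIs, 0 were called in KCs and 5 in endothelial cells. The stricter gate, leaving out cycling cells and leaving out T cell receptor UMIs each left 7 mice with at least 10 KCs. With at most 10% mitochondrial UMIs, which left 42 KCs (none tested), 231 monocytes and BMDMs, 1150 B cells, 682 endothelial cells and 485 NK and ILC1 cells, 1 was called in monocytes and BMDMs and 0 in B, endothelial and NK and ILC1 cells. Added after seeing the data, tolerance of T cell markers gave 3 in monocytes and BMDMs, 0 in pDCs and 1 in endothelial cells, and dropping the fold threshold gave 2 in pDCs, 11 in B cells, 3 in NKT-like cells and 4 in other T cells. For the other changes in counts the cause was not tested. The share of all genes called under each alternative is not given, so these counts are not shown to be particular to the members. At the depth of these classes, 1961 genes could be tested in KCs, 1349 in cDC2 and 383 in neutrophils.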
